A study of Homo sapiens with 6 samples.

Results

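The interferon regulatory factor (IRF) genes IRF1, IRF2, IRF3, IRF4, IRF5, IRF7, IRF8 and IRF9 were examined in A549 cells that over-expressed the RNA-binding protein CELF6. These 8 genes were found by symbol among the 29889 genes of the count table, and all 8 are also in the FPKM table. A549 is an established line of human lung adenocarcinoma. It received either a CELF6 expression plasmid (CELF6-OE, 3 libraries) or an empty plasmid (Control, 3 libraries), and RNA was taken 48 h later. Both groups therefore carried plasmid DNA and transfection reagent, and cells without a plasmid were not analysed here. The libraries are biological replicates according to the methods, from 1 cell line, so p-values measure the spread between these libraries.

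IRF proteins are transcription factors that share a DNA-binding domain and recognise the interferon-stimulated response element, a motif built on repeats of GAAA. IRF3 and IRF7 lie in the cytoplasm until kinases such as TBK1 phosphorylate them after a sensor has met foreign nucleic acid, and they then switch on type I interferon genes. IRF9 joins STAT2 in the complex that answers type I interferon. IRF1 activates antigen presentation and guanylate-binding protein genes, IRF2 competes with it for the same sites, IRF5 acts below Toll-like receptors, and IRF4 and IRF8 are known mainly from lymphoid and myeloid cells.

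Promoter windows of RefSeq (GRCh38.p14), which run from 250 bases before to 50 bases after a start, were matched for 5 of the 8 genes. No window was matched for IRF2, IRF3 or IRF7. The windows were searched on both strands for the gamma-activated site (GAS, TTCNNNGAA, where STAT dimers bind), for the core of the interferon-stimulated response element and for the NF-kB consensus. The stretches that hold a match are shown because interferon and NF-kB signals are known to act on these genes. Capitals mark the match, and the GAS letters read the same on both strands.
IRF1 GAS: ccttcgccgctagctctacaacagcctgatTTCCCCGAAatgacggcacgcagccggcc
IRF1 NF-kB: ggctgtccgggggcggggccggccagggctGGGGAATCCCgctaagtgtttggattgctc
IRF9 GAS: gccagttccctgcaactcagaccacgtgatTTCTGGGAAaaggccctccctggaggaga
The IRF1 stretches lie on the minus strand at chr5:132490869-132490927 and chr5:132490794-132490853, and their matches begin 124 and 50 bases before the start. The IRF9 stretch lies on the plus strand at chr14:24161172-24161230, with the match 63 bases before the start. Of all 35116 promoter windows, 7.66% held the GAS letters, 11.3% the NF-kB consensus and 3.57% the response element core. The core was in none of the matched IRF windows, and the windows of IRF4, IRF5 and IRF8 held none of the 3 motifs. The IRF8 windows lie inside the gene, downstream of the start of its canonical transcript, and the bases before that start were not searched. These matches describe the letters of the windows only.

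The counts of CELF6 itself were 18646, 20789 and 11571 in replicates 1 to 3 of CELF6-OE and 0 in every Control library, a count that allows up to 3. In FPKM (fragments scaled by gene length and by the fragments of the library) these were 270.09, 294.94 and 172.27, or 246 ± 64.9 (SD, n = 3). Reads of the plasmid and of the cells' own gene cannot be told apart. CELF6-OE replicate 3 had 61.0% of the mean CELF6 FPKM of replicates 1 and 2. Total counts on genes ranged from 33748328 to 35413404 for CELF6-OE libraries and from 36422617 to 37920700 for Control libraries. Of 13 leukocyte markers found from a list of 17, all but CD14 were under 1 FPKM in every library, and PTPRC, which encodes the pan-leukocyte marker CD45, did not exceed 0.01. CD14 was at 3.02 to 4.53. ITGAM, an integrin of myeloid cells, was a DEG that fell, at 0.32 to 0.36 FPKM against 0.49 to 0.59 for Control. The alveolar type 2 markers NKX2-1, SFTPC, SFTPB and SFTPA1 were near 0, with a summed level of 0.06 to 0.12 FPKM. The 10 epithelial and A549 markers summed to 9409 to 10830 FPKM with CELF6-OE, below the 11551 to 11700 of Control. Of these 10, KRT8, KRT18 and KRT19 were lower at an adjusted p under 0.05 and CDH1, the gene of E-cadherin, was called lower (log2 fold change −1.62 ± 0.17 SE). Their part in the results on the IRF genes was not tested.

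In Control cells the members differed widely in FPKM, a scale per length on which genes can be compared. IRF7 was highest at 102 ± 9.93 FPKM (SD, n = 3) and stood above 97.9% of the genes of the FPKM table. IRF3 followed at 52.9 ± 4.66, IRF1 at 28.6 ± 0.600, IRF2 at 9.72 ± 0.896 and IRF5 at 3.32 ± 0.474. From IRF7 to IRF8 no neighbours in this order overlapped between Control libraries. IRF8 had 0.09 to 0.12 FPKM, and IRF4 and IRF9 had at most 0.03 and could not be ordered. In CELF6-OE the order of the means from IRF7 to IRF8 was the same, but the libraries of IRF7 and IRF3 overlapped.

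**Figure D1:**
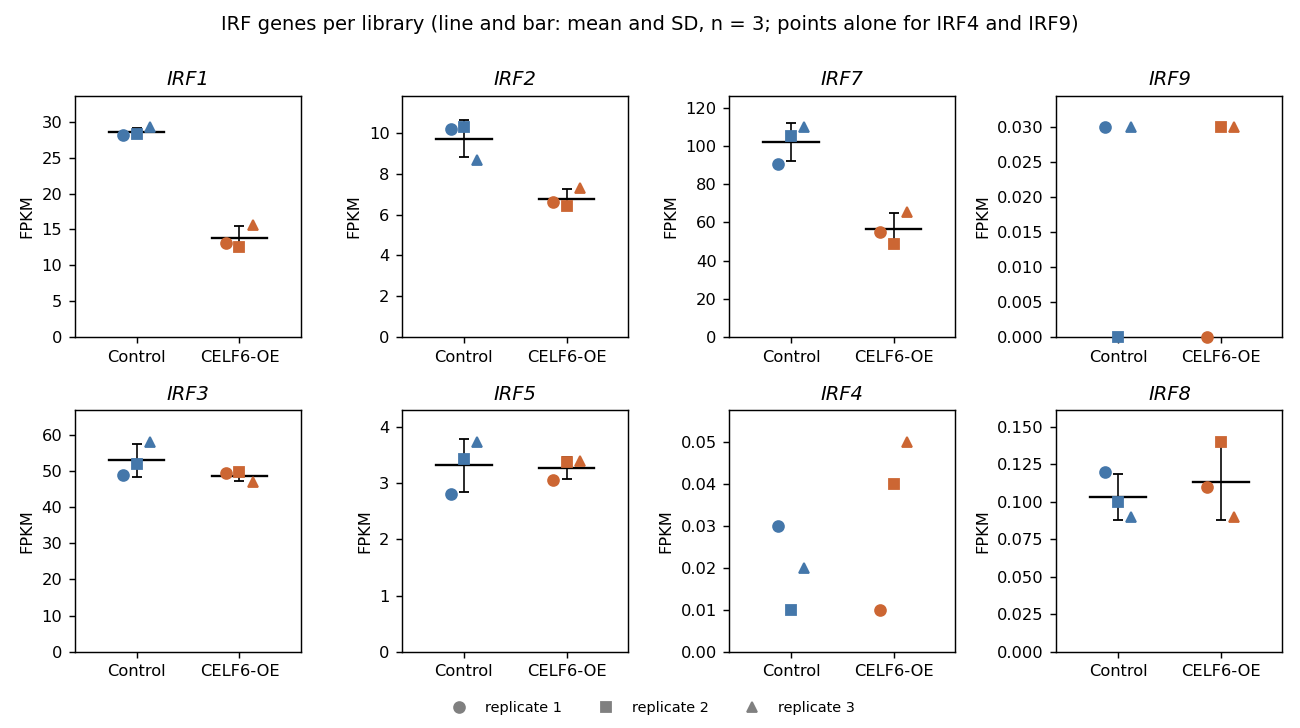
FPKM (y axis, linear, from 0) of each IRF gene in the 3 Control and 3 CELF6-OE libraries, with symbols for the replicate and with mean and SD except for IRF4 and IRF9. IRF1, IRF2 and IRF7 are lower in all CELF6-OE libraries than in any Control library, while the libraries of the other genes overlap.

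IRF1 and IRF7 fell in CELF6-OE to about 47.1% and 54.2% of their Control levels, IRF2 fell without reaching a 1.5-fold difference, and no tested IRF gene rose. A differentially expressed gene (DEG) had to differ by 1.5-fold or more with p under 0.01 in edgeR's quasi-likelihood test over 15847 genes. Of the 8 IRF genes, 6 had enough counts to be tested, and 2 of these 6 were DEGs that fell and 0 were DEGs that rose. Over all genes tested, 5.91% were DEGs that fell and 1.36% were DEGs that rose. At an adjusted p under 0.05 without a fold limit, 3 of the 6 were lower and 0 higher, beside 11.5% and 6.47% of all genes. In FPKM, the highest library of one group lay below the lowest of the other for 3 of the 6, beside 37.9% of all genes. That share was taken on scaled counts rather than FPKM, and a gene whose groups lie close, such as IRF3, may differ between these scales. The median log2 fold change of the 6 was −0.35, and that of all genes tested was 0.01. Being few, the 6 genes carry little weight as a count.

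IRF1 (ENSG00000125347), which drives genes of antigen presentation, lies on the minus strand at chr5:132481609-132490773 in 10 exons of its canonical transcript (GENCODE v44, GRCh38). The FPKM were 13.06, 12.6 and 15.66 in CELF6-OE and 28.21, 28.32 and 29.3 in Control. The groups were far apart, with CELF6-OE replicate 3 the nearest to Control. The log2 fold change was −1.09 ± 0.09 (SE; 95% interval −1.27 to −0.90; adjusted p = 2.01e-05). C5orf56 is a non-coding gene on the opposite strand whose exons share 580 bases (16.3%) with the canonical exons of IRF1. Its counts were 98, 82 and 156 with CELF6-OE against 279, 262 and 274 for Control, and it also fell (log2 fold change −1.20 ± 0.20 SE, adjusted p = 0.00233). The libraries were directional, but whether the authors' counting used the strand is not given in the sources used here, so it is not known whether reads of the pair were kept apart. IRF1 itself had 1771 to 2097 counts against 4053 to 4383 for Control.

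IRF2 (chr4:184387729-184474550, minus strand, 9 exons), the counterpart that occupies IRF1 sites, had FPKM of 6.63, 6.42 and 7.3 in CELF6-OE. In Control it had 10.19, 10.29 and 8.69. The groups did not overlap, but the fitted difference missed the 1.5-fold limit (log2 0.58). Its log2 fold change was −0.55 ± 0.09 (SE; 95% interval −0.75 to −0.35; adjusted p = 0.00195). Without CELF6-OE replicate 3 or without Control replicate 3 it was −0.61 in each case and IRF2 became a DEG.

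IRF7 (chr11:612555-615950, minus strand, 11 exons), which amplifies type I interferon production, had FPKM of 54.9, 48.92 and 65.71 in CELF6-OE and 90.85, 105.1 and 109.96 in Control. All CELF6-OE libraries were lower than any Control library, with replicate 3 again the highest of its group. The log2 fold change was −0.88 ± 0.11 (SE; 95% interval −1.13 to −0.63; adjusted p = 0.000375).

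IRF3 (chr19:49659572-49665857, minus strand, 8 exons), which is activated by phosphorylation of protein already present, had FPKM of 49.52, 49.54 and 46.92 in CELF6-OE and 48.85, 51.77 and 57.97 in Control. The groups overlapped through Control replicate 1. The log2 fold change was −0.15 ± 0.08 (SE; 95% interval −0.33 to 0.03; adjusted p = 0.218). Without Control replicate 1 it was −0.23 with an adjusted p of 0.0220, so this call depended on 1 library. BCL2L12, an apoptosis-related gene on the opposite strand, shares 227 bases, or 14.2%, of the canonical exons of IRF3. The log2 fold change of BCL2L12 was 0.16 ± 0.09 (SE, adjusted p = 0.234).

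IRF5 (chr7:128937927-128950038, plus strand, 9 exons), which acts below Toll-like receptors, had FPKM of 3.05, 3.37 and 3.39 in CELF6-OE and 2.8, 3.42 and 3.73 in Control. The groups overlapped, and the log2 fold change was −0.05 ± 0.13 (SE; 95% interval −0.33 to 0.22; adjusted p = 0.799). The intervals of IRF3 and IRF5 do not reach a 1.5-fold difference in either direction.

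**Figure D2:**
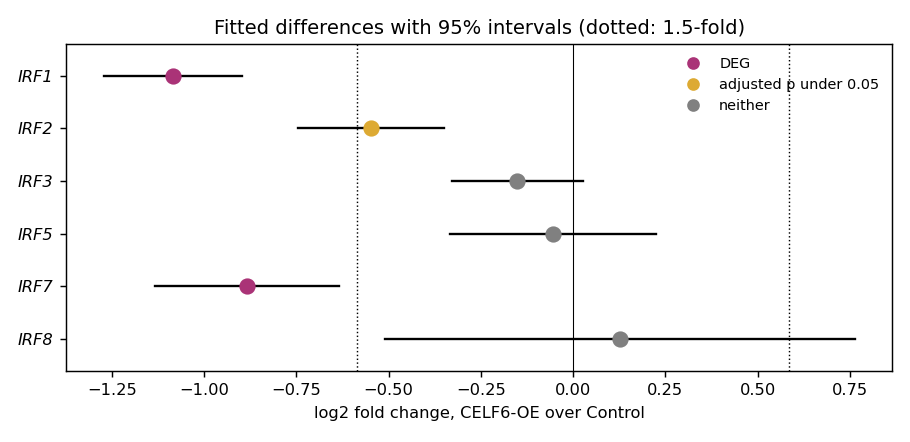
Fitted log2 fold change of CELF6-OE over Control (x axis) with 95% intervals for the 6 IRF genes tested, coloured by call, with dotted lines at a 1.5-fold difference. The intervals of IRF1 and IRF7 lie wholly below the lower line, that of IRF2 crosses it, and that of IRF8 is the widest, from −0.51 to 0.76.

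The members known from lymphoid and myeloid cells were at or near 0. IRF8 (chr16:85899162-85922606, plus strand) was counted 17, 22 and 14 times in the CELF6-OE libraries against 19, 17 and 15 times for Control. Its log2 fold change was 0.13 ± 0.29 (SE; 95% interval −0.51 to 0.76; adjusted p = 0.796), an interval that leaves room for a 1.5-fold rise. IRF4 (chr6:391752-411443, plus strand) was counted 2, 8 and 9 times in the CELF6-OE libraries against 7, 3 and 5 times for Control and was not tested by edgeR. These counts overlap and no difference was detectable at this depth.

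IRF9 (chr14:24161265-24166565, plus strand, 9 exons), the DNA-binding partner of STAT2, was counted 0, 2 and 2 times in the CELF6-OE libraries against 2, 0 and 2 times for Control and was not tested. A readthrough gene on the same strand, ENSG00000259529 (chr14:24147548-24166452), shares 1513 bases, or 93.1%, of the canonical exons of IRF9. Its counts were 3203, 3185 and 3116 with CELF6-OE against 3793, 3994 and 3984 for Control, or 17.91 to 18.39 FPKM against 20.87 to 21.12. The authors kept reads with a unique location and assigned them to genes, and how reads on both genes were treated is not given in the sources used here. The listed counts of IRF9 are therefore uncertain as a measure of its RNA, and those of ENSG00000259529 cannot be assigned to either gene. The readthrough gene also overlaps RNF31, a gene on the same strand that ends 574 bases before IRF9. It begins at chr14:24147548, far before that end, so the overlap is not limited to the end of RNF31. Whether reads of RNF31 are among the counts of ENSG00000259529 was not tested. ENSG00000259529 was lower in all CELF6-OE libraries (log2 fold change −0.23 ± 0.06 SE, adjusted p = 0.0206), and it was not a DEG.

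The balance between members was compared within each library, where the scaling of the library cancels. The ratio of IRF7 to IRF3 FPKM was 1.11, 0.987 and 1.40 in CELF6-OE and 1.86, 2.03 and 1.90 in Control. All CELF6-OE ratios were lower, with a log2 difference of −0.74 (exact two-sided permutation test, p = 0.1, the smallest that 3 against 3 libraries allow). The ratio of IRF1, the activator, to IRF2 was 1.97, 1.96 and 2.15 in CELF6-OE and 2.77, 2.75 and 3.37 in Control. These did not overlap either, with a log2 difference of −0.54 (exact two-sided permutation test, p = 0.1). With 2 ratios tested the adjusted p is also 0.1, so neither difference could pass 0.05 in this design.

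**Figure D3:**
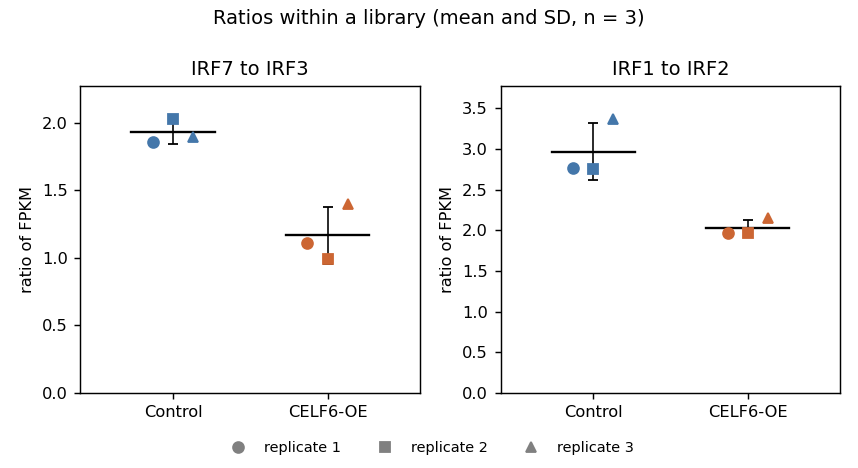
Ratio of FPKM within a library (y axis, from 0) for IRF7 to IRF3 and for IRF1 to IRF2, with 3 libraries a group and mean and SD. Both ratios are lower in every CELF6-OE library than in any Control library.

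Within CELF6-OE, replicate 3, the library with the least CELF6, had the highest IRF1, IRF2 and IRF7 and, by a small margin, IRF5, but the lowest IRF3 and IRF8. Its IRF1 FPKM was 54.7% of the Control mean, against at most 45.6% in replicates 1 and 2. Its IRF7 FPKM was 64.4% of the Control mean, against 53.8% and 48.0%. Replicate 3 was also the highest of its group for 67.9% of all DEGs that fell and 31.2% of all genes tested. With 3 libraries the relation to the CELF6 level was not tested.

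Upstream of the IRF proteins, the 3 cytoplasmic RNA sensors and TLR3 fell, and neither TBK1 nor IKBKE, which phosphorylate IRF3 and IRF7, was a DEG. The list held 22 genes for sensors, adaptors, kinases and 2 ubiquitin ligases of this pathway (TRIM25 and RNF135), and all were tested. Their median log2 fold change was −0.25. Of these 22, 6 were DEGs that fell and 0 rose, beside 5.91% and 1.36% of all genes tested. These 6 were the RNA sensors DDX58 (RIG-I), IFIH1 (MDA5) and DHX58 (LGP2), the endosomal RNA receptor TLR3, and the adaptors TMEM173 (STING) and MYD88. DHX58 FPKM were 0.88, 0.82 and 1.45 in CELF6-OE and 5.33, 5.84 and 5.75 in Control (log2 fold change −2.45 ± 0.18 SE, adjusted p = 1.3e-05). TMEM173 was low in both groups, at 0.14 to 0.26 FPKM against 1.28 to 1.52 for Control (log2 fold change −2.94 ± 0.28 SE, adjusted p = 2.96e-05). The log2 fold changes of TLR3, IFIH1 and DDX58 were −1.63 ± 0.18, −1.27 ± 0.16 and −1.09 ± 0.13 (SE). MYD88, the adaptor through which Toll-like receptors reach IRF5 and IRF7, had 34.43 to 42.07 FPKM against 57.88 to 60.17 for Control (log2 fold change −0.67 ± 0.08 SE). The DNA sensor MB21D1 (cGAS) had a log2 fold change of −0.05 ± 0.14 (SE, adjusted p = 0.846). The kinase TBK1 had a log2 fold change of −0.05 ± 0.13 (SE, adjusted p = 0.833). Its relative IKBKE was lower without reaching 1.5-fold (−0.34 ± 0.09 SE, adjusted p = 0.0240). The adaptors MAVS and TICAM1, through which the RNA sensors and TLR3 signal, had log2 fold changes of 0.18 ± 0.06 and −0.27 ± 0.11 (SE; adjusted p = 0.0559 and 0.118). At an adjusted p under 0.05, 9 of the 22 were lower and 1 was higher, beside 11.5% and 6.47% of all genes. The higher gene was the kinase IRAK1 (log2 fold change 0.27 ± 0.08 SE, adjusted p = 0.0317).

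Among 14 partners and regulators of IRF proteins 11 were tested, with a median log2 fold change of 0.01. Of these 11, 1 was a DEG that fell and 0 rose, beside 5.91% and 1.36% of all genes tested. That gene was TRIM21, a ubiquitin ligase that acts on IRF proteins, at 38.08 to 51.12 FPKM against 68.03 to 71.83 for Control (log2 fold change −0.69 ± 0.10 SE, adjusted p = 0.000627). The co-repressors IRF2BP1, IRF2BP2 and IRF2BPL had log2 fold changes of 0.13, −0.18 and −0.22, with adjusted p of 0.279, 0.0594 and 0.0572. The coactivators CREBBP and EP300 had 0.01 and 0.19, with adjusted p of 0.933 and 0.283. At an adjusted p under 0.05, 2 of the 11 were lower and 1 was higher, beside 11.5% and 6.47% of all genes. With 11 genes, such counts do not set the list apart from all genes. The ubiquitin ligase genes RBCK1 and UBE3C had log2 fold changes of −0.39 ± 0.08 and 0.27 ± 0.06 (SE; adjusted p = 0.00799 and 0.0112). SPI1, SPIB and BATF, partners of IRF4 and IRF8 in blood cells, had at most 0.08 FPKM and were not tested. BATF3, listed as a partner of the same kind, was expressed, at 14.21 to 15.6 FPKM against 14.76 to 18.37 for Control. Its log2 fold change was −0.20 ± 0.11 (SE, adjusted p = 0.223).

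Downstream, of 13 genes for interferon receptors and their signalling, 4 were DEGs that fell and 0 rose, beside 5.91% and 1.36% of all genes. The median log2 fold change of the 13 was −0.40. STAT2, the partner of IRF9, had FPKM of 6.02, 5.61 and 8.88 in CELF6-OE and 13.6, 14.08 and 12.82 in Control (log2 fold change −1.01 ± 0.14 SE, adjusted p = 0.000686). The feedback inhibitors USP18 and SOCS1 had log2 fold changes of −1.02 ± 0.13 and −0.99 ± 0.17 (SE), and IFNGR1, a chain of the interferon-gamma receptor, had −0.59 ± 0.09, just past the 1.5-fold limit. IFNAR1 and IFNAR2, the chains of the type I interferon receptor, had log2 fold changes of 0.10 ± 0.09 and −0.28 ± 0.07 (SE; adjusted p = 0.430 and 0.0270). The kinases JAK1 and TYK2 had 0.08 and −0.21, with adjusted p of 0.387 and 0.0831. At an adjusted p under 0.05, 8 of the 13 were lower and 0 higher, beside 11.5% and 6.47% of all genes.

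A list of 18 genes known as targets of IRF1 was examined downstream of the family. Of these 16 were tested, and 14 were DEGs that fell and 0 rose, beside 5.91% and 1.36% of all genes tested. The median log2 fold change of the 16 was −1.73. CIITA and CYBB were too low to test. The list was written with results of these data known and many of its genes also answer other IRF, STAT and NF-kB factors, so the count does not tell which factor was involved. CCL5, a chemokine, had FPKM of 9.61, 14.11 and 25.84 in CELF6-OE and 207.13, 224.99 and 244.5 in Control (log2 fold change −3.81 ± 0.25 SE, adjusted p = 1.22e-05). IDO1, which degrades tryptophan, had a log2 fold change of −3.28 ± 0.20 (SE, adjusted p = 3.16e-06). IL18BP, the soluble inhibitor of interleukin-18, and CASP1, the inflammasome protease, had −3.38 ± 0.22 and −2.61 ± 0.20 (SE). In 14 of the 16 tested genes CELF6-OE replicate 3 was the highest of its group, as it was for 67.9% of all DEGs that fell and 31.2% of all genes tested.

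**Figure D4:**
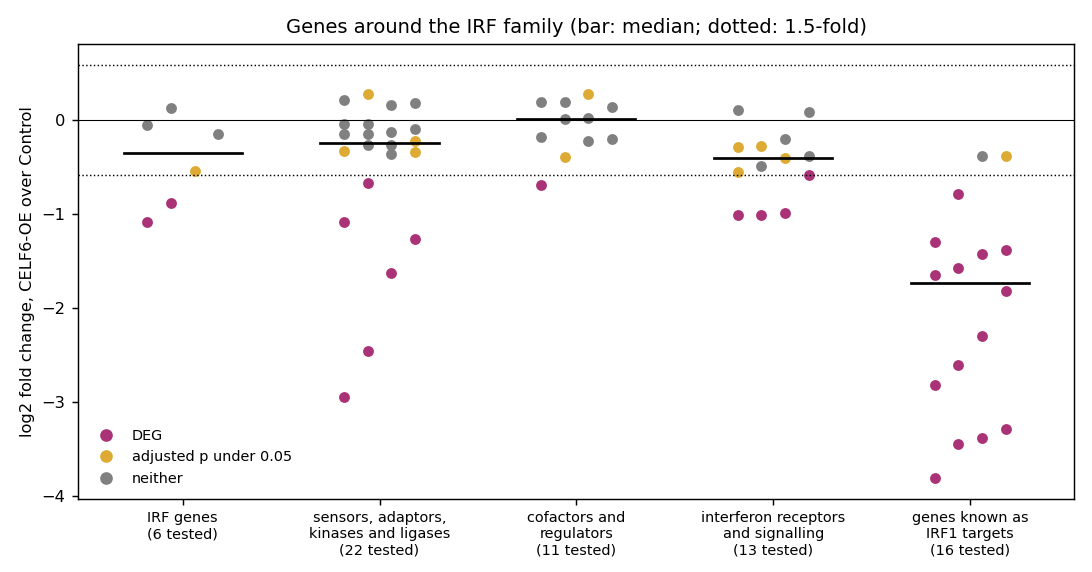
Log2 fold change of CELF6-OE over Control (y axis) for each tested gene of the IRF family and of the 4 gene lists, coloured by call, with a bar at the median and dotted lines at a 1.5-fold difference. The medians are −0.35 for the IRF genes, −0.25 for sensors, adaptors, kinases and ligases, 0.01 for cofactors, −0.40 for receptors and signalling and −1.73 for known IRF1 targets.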

How the data were processed

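The authors trimmed the reads, aligned them to GRCh38 with TopHat2 and deposited raw counts of uniquely located reads for each gene. They also deposited FPKM values, rounded to 2 decimals. The tool, strand setting and annotation used to count are not given in the sources used here. Groups and replicate numbers came from the sample labels.

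Counts were scaled with TMM and tested with edgeR 4.0.16 (R 4.3.3; glmQLFit and glmQLFTest) over the 15847 genes kept by filterByExpr (minimum count 10), with Benjamini-Hochberg adjustment. The prior count was 0.125, and fold changes were given on the log2 scale. Their SE and 95% intervals came from the fitted model with its moderated dispersion. A DEG differed by 1.5-fold or more with p under 0.01, after the study's methods. Libraries of a group differed beyond sampling noise (chi-square per degree of freedom 7.67 to 29.3). FPKM ratios were compared with exact permutation tests (SciPy 1.17.1). The test was tried first on simulated data with planted differences of 2-fold or more, so differences near 1.5-fold were not tried.

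Members and gene lists were chosen with earlier results of these data known. Named were all IRF genes, all DEGs of a list or the 4 of smallest p where more than 5 in a direction, and regulators chosen by name. Outside this rule DDX58, IFIH1, MB21D1, IRAK1, TRIM25, RNF135, RBCK1, UBE3C, BATF3 and the keratins were chosen after their values were seen. So were CD14, the alveolar markers and the genes named as too low to test. The alternatives were other scalings, DESeq2 1.42.0, limma 3.58.1 (voom, and log2 of FPKM), filters and prior counts, and leaving out libraries. For IRF9 and the genes around the family, locations came from GENCODE v44, where 29032 of 29889 identifiers (97.1%) were found. One further gene looked up is not reported here.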

Additional observations from a re-analysis of the deposited data

How the results depend on the processing

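IRF1 and IRF7 remained DEGs that fell in every alternative with the 1.5-fold limit, with log2 fold changes of −1.19 to −1.01 and −1.01 to −0.79 and adjusted p of at most 0.000361 and 0.00395. IRF2 had −0.61 to −0.46 with an adjusted p of at most 0.0195. At a fold change of 2, 1 IRF gene was called lower, and 0 cofactors and 2 receptor and signalling genes were; the limit itself gives these lower counts. At the 1.5-fold limit the receptor and signalling count of 4 was 3 with library size only, upper quartile scaling, either limma fit of FPKM or without Control replicate 2, and 5 without Control replicate 3. The count of 14 lower genes among known IRF1 targets was 12 to 14 in the alternatives, with 12 from limma on log2(FPKM + 1). The count of 6 lower sensor and adaptor genes was 5 at a fold change of 2 and 6 in the other alternatives. The direction of IRF5 (−0.19 to 0.06) and IRF8 (−0.04 to 0.25) changed between alternatives. Over all genes, 936 fell and 216 rose as DEGs, beside 423 and 55 with limma on log2(FPKM + 1), 480 and 65 at a fold change of 2, 1212 and 324 without a filter, and 955 and 348 without Control replicate 1; the cause was not tested. Replicate numbers did not pair the libraries (correlations of deviations −0.00229, −0.0126 and −0.0668), and with the replicate block IRF1, IRF2 and IRF7 had −1.09, −0.55 and −0.89 and changed no call. Under the replicate block the ratios differed by −0.74 (IRF7 to IRF3) and −0.54 (IRF1 to IRF2). Low counts limit what can be said of IRF4, IRF8 and IRF9.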

Other observations

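The nearest expressed protein-coding genes on either side of the 8 IRF genes, 16 in all, held 0 DEGs by edgeR's test. Of all genes tested, 5.91% were DEGs that fell and 1.36% DEGs that rose. Of the 16, 1 had an adjusted p under 0.05, beside 11.5% lower and 6.47% higher over all genes. That gene was RNF31, a ubiquitin ligase gene 574 bases from IRF9 (log2 fold change −0.29 ± 0.07 SE, adjusted p = 0.0188). The readthrough gene ENSG00000259529 overlaps RNF31, and whether their reads were kept apart is not known. With 16 genes, such counts do not set the neighbours apart from all genes. PHRF1, 331 bases from IRF7, had 0.10 ± 0.07 (SE, adjusted p = 0.356), and DEAF1 on its other side had −0.21 ± 0.08 (SE, adjusted p = 0.0773). SLC22A5 and RAD50, on either side of IRF1, had log2 fold changes of −0.01 and 0.03, with adjusted p of 0.956 and 0.912.

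Across the 6 libraries and 13295 protein-coding genes, the genes whose log2(FPKM + 1) was most like that of IRF1 were LY6E, SERPING1 and HLA-E, each with Pearson's r of 0.999 and with log2 fold changes of −1.50, −2.84 and −1.50. Those most like IRF7 were TMSB10, PDLIM1 and NMT1, each with r of 0.998 and with smaller log2 fold changes of −0.38, −0.38 and −0.19. The libraries fall into 2 groups, which all these points share.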
